A study of Mus musculus with 6 samples.

Results

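The genes described here encode the secreted and membrane-bound metalloproteases that cut extracellular matrix, their non-catalytic relatives and their inhibitors. Members were taken by symbol, as every probe set annotated to exactly 1 gene named as a matrix metalloproteinase (Mmp), an Adamts protease, an Adamts-like protein (Adamtsl) or a tissue inhibitor of metalloproteinases (Timp1 to Timp4). This gave 78 probe sets for 42 of the 18193 genes with such an annotation, namely 18 Mmp, 15 Adamts, 5 Adamtsl and 4 Timp genes. All 6 arrays came from cultured stromal cells of the bone marrow of female mice, 10 weeks old, on a mixed C57BL/6 x SV129 background. The genotype was the same for all arrays, wnt1/CRE-R26R-lacZ, in which Cre recombinase under Wnt1 sequences switches on a lacZ reporter and so marks descendants of the neural crest. The labels divide the cells into mesenchymal stem cells (MSC, 3 arrays) and neural crest stem cells (NCSC, 3 arrays). They were untreated, and clones were picked after 5 or more passages in Mesencult. The labels number the arrays of a group as replicates without saying whether they came from separate mice or clones. The p-values therefore measure the spread between these arrays, which may be technical, and whether MSC and NCSC differ by cell type or by the clone picked cannot be told apart.

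Matrix metalloproteinases are made as inactive pro-enzymes that are opened by other proteases, and they cut collagens, gelatins, laminins and many cell surface proteins. Adamts enzymes are related secreted proteases with thrombospondin repeats, and they trim proteoglycans such as versican and aggrecan, procollagens and microfibril proteins. Adamts-like proteins share those repeats but lack the catalytic domain, and the Timp proteins plug the active sites of these enzymes, with Timp3 the member that also blocks several Adamts and Adam enzymes. In bone marrow stroma the matrix that these proteins remodel carries growth factors and anchors blood-forming cells.

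Values are log2 GCRMA intensities of a probe set, a relative scale that does not allow one gene's level to be set against another's. A value above 4 on that scale was taken as above background, and a gene was tested when a probe set of it passed that limit on at least 3 arrays, each gene being represented by its brightest such probe set. Between 45.2% and 45.5% of all probe sets lay above the limit on each array. Lineage markers were checked against the labels. Of 13 neural crest and Schwann cell genes with a probe set all 11 tested were higher in NCSC. Sox2, Cdh19, Erbb3, Ngfr, Foxd3 and Fabp7 were under the limit on every MSC array. They were tested through NCSC alone and so had to be higher. The crest regulator Sox10 was at 12.84 in NCSC and 4.30 in MSC. Gfap was under the limit on all arrays, and S100b was at 7.72, 7.29 and 2.15 in NCSC. In each cell type 10 of 13 mesenchymal stromal genes were above the limit on all 3 arrays. Of that list 7 genes were lower and 3 higher in NCSC. Vcam1 was 16.5-fold and Cd248 at least 23.3-fold lower, while Eng was 25.8-fold and Nt5e at least 22.8-fold higher in NCSC, against the direction of the label, and Thy1 and Lepr were above the limit on no array. MSC 2 and NCSC 3 stood apart from the other arrays of their type, and results that rest on them are given with and without them.

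Of the 42 genes 22 were tested, and 20 had no probe set that passed the limit on 3 arrays. Metalloprotease genes were found on both sides of the comparison. The 3 tested inhibitors were called lower in NCSC, with the calls of Timp1 and Timp2 lost in 9 and 7 of 17 alternative settings, and no difference between the families was tested. In limma's test (adjusted p under 0.05) NCSC had higher levels of 8 members and lower levels of 10, and 4 members were not called. Over all 10501 tested genes 64.1% were called, 35% higher and 29.1% lower, so that the share of members called, 18 of 22, has to be read against a comparison in which most genes differ. A difference of at least 2-fold together with a call was seen for 7 members that were higher and 4 that were lower, against 15.1% and 14% of all tested genes. These counts were 6 and 6 with quantile normalization, and 7 and 6 with the mean of each gene's probe sets. The median difference, NCSC minus MSC, was -0.17 for the tested members and 0.056 for all tested genes, and the median size of the difference was 1.01 and 0.55. In 19 of 22 members the arrays of the 2 cell types did not overlap, as in 71.2% of all tested genes. The 95% interval of the difference lay within 2-fold either way for 8 of 22 members and for 55.3% of all tested genes. Since this was bulk RNA, fewer cells of a type and less RNA per cell cannot be told apart in any of these values. Members that passed the limit through 1 cell type alone had to differ, so these counts describe the tested members and not all 42. Mmp9, Mmp16 and Mmp23 were such members, and their p-values are no support for the direction of their differences.

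**Figure D1:**
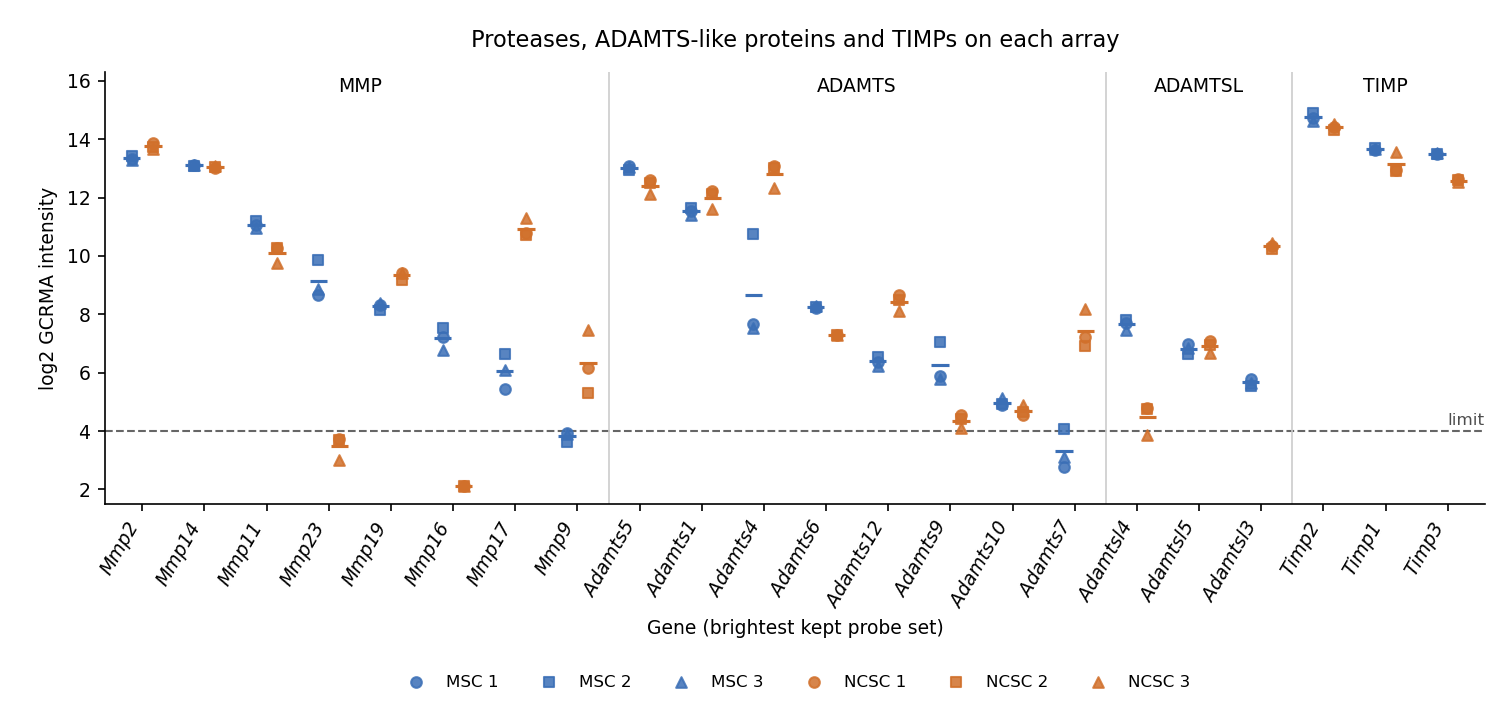
Log2 GCRMA intensity (vertical axis) of the 22 tested members on each array, grouped by family, with MSC in blue, NCSC in orange, replicates by marker shape, group means as bars and the limit of 4 dashed. Mmp16 and Mmp23 are under the limit on every NCSC array, Adamtsl3, Mmp17 and Adamts4 lie well above MSC in NCSC, and the 3 Timp genes are bright in both cell types.

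Both gelatinases, the enzymes that cut denatured collagen and basement membrane, were higher in NCSC. Mmp2, the gelatinase typical of stromal cells, had intensities of 13.31, 13.42 and 13.30 on MSC 1 to MSC 3 and of 13.87, 13.74 and 13.66 on NCSC 1 to NCSC 3. All NCSC arrays thus lay above all MSC arrays by a small margin, with a difference of 0.41 ± 0.09 (SE, adjusted p = 0.00774), or 1.33-fold. Its other probe set differed by 0.49. Mmp2 lies on chromosome 8, where the median difference of the 569 tested genes was -0.94, and relative to that median it was 1.36 higher in NCSC.

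Mmp9, the gelatinase of phagocytes, osteoclasts and activated cells, was at 3.94, 3.63 and 3.89 in MSC, just under the limit on every array, and at 6.18, 5.32 and 7.46 in NCSC. The NCSC arrays were all higher but spread over 2.14 log2 units. With MSC values set to the limit it was at least 4.98-fold higher in NCSC (adjusted p = 0.00593), and at least 3.35-fold without NCSC 3. The gene passed the limit through NCSC alone and so had to be higher there. A second probe set of Mmp9 stayed under the limit on all 6 arrays. Macrophage markers moved with it in part. Of 12 such genes with a probe set Cd68, Lyz1 and Lyz2 were higher in NCSC. The Lyz genes are close copies whose probes may not separate them. The summed intensity of all 12 ran from 8.70 to 8.95 on the log2 scale in MSC and from 10.49 to 10.76 in NCSC. Its largest part was Lyz1, at 8.04, 8.38 and 7.98 in MSC and 9.45, 9.68 and 9.79 in NCSC. Other macrophage markers were not called higher. Csf1r was tested and not called (adjusted p = 0.188), and Cd14 was at 4.63, 3.96 and 5.15 in MSC and at 2.19, 2.16 and 2.19 in NCSC. The defining leukocyte and macrophage genes Ptprc, Itgam and Adgre1 were at 2.12 to 2.13 on every array, as were Fcgr1, Mrc1 and Aif1, and all 8 neutrophil genes and all 7 osteoclast genes were under the limit throughout. The part of macrophage genes in the Mmp9 difference was not tested.

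Membrane-type metalloproteinases, which sit on the cell surface and act at its edge, showed 3 different patterns. Mmp14, the transmembrane enzyme that with Timp2 activates Mmp2, was bright and nearly equal, at 13.10, 13.09 and 13.12 in MSC and 13.00, 13.04 and 13.08 in NCSC, values that are close but do not overlap. Its difference of -0.06 had a 95% confidence interval of -0.24 to 0.11 (adjusted p = 0.455), which lies within 2-fold either way. The other 2 probe sets of Mmp14 differed by -0.24 and -0.19 and were not called either.

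Mmp17, anchored in the membrane by a glycolipid, was at 5.44, 6.65 and 6.07 in MSC and at 10.80, 10.71 and 11.29 in NCSC. The lowest NCSC array was far above the highest MSC array. The difference was 4.88 ± 0.32 (SE, adjusted p = 5.19e-05), or 29.3-fold, and it ran from 23.7-fold to 36.1-fold when single arrays were left out.

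The transmembrane enzyme Mmp16 went the other way, with 7.24, 7.52 and 6.77 in MSC and 2.12, 2.13 and 2.12 in NCSC. NCSC arrays were thus at or next to the lowest value in the table, and far below MSC. It was at least 9.05-fold lower in NCSC (adjusted p = 4.05e-06), and 2 further probe sets of the gene were at least 3.36-fold and 3.63-fold lower. All of these probe sets passed the limit through MSC alone and so had to be lower in NCSC. Mmp24, a relative found mainly in the nervous system, was under the limit on all arrays in all 3 of its probe sets, with a highest value of 3.32.

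Mmp23, an unusual family member that lacks the hemopexin domain and is cut loose from the membrane, was above the limit in MSC alone. It had 8.67, 9.87 and 8.87 in MSC and 3.74, 3.70 and 3.00 in NCSC, so that no NCSC array reached the limit. The bound of the fall was 35.2-fold (adjusted p = 4.47e-05), or 27.3-fold without MSC 2, and that of a second probe set 14.2-fold. Both probe sets passed the limit through MSC alone and so had to be lower in NCSC. Mmp11, a stromelysin made active inside the cell by furin, was at 11.05, 11.19 and 10.97 in MSC and at 10.27, 10.26 and 9.76 in NCSC. Every NCSC array was lower than every MSC array, by 0.97 ± 0.16 on average (adjusted p = 0.00237).

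Mmp19, which cuts basement membrane and tenascin, had 8.32, 8.15 and 8.39 in MSC and 9.43, 9.17 and 9.40 in NCSC. The groups did not overlap, and it rose by 1.05 ± 0.11 (SE, adjusted p = 0.000353). Its second probe set differed by 1.48.

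**Figure D2:**
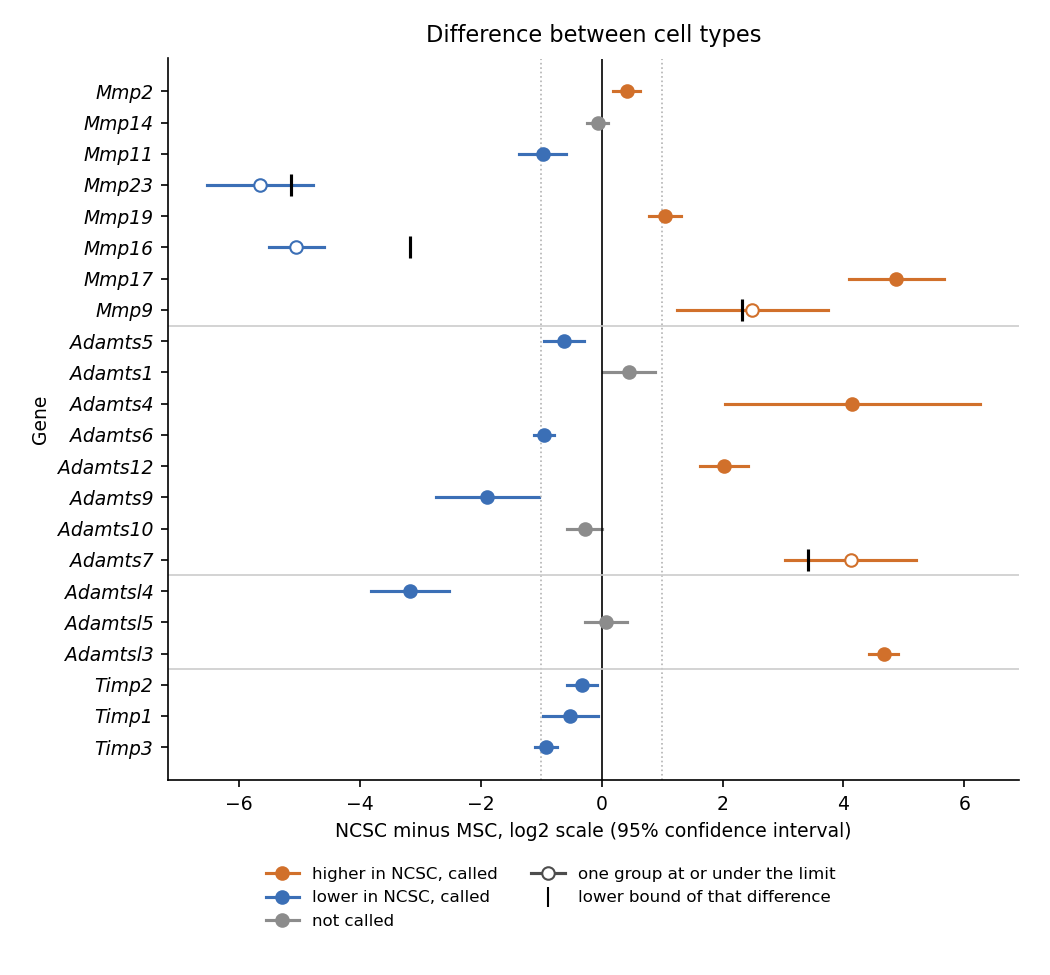
Difference between NCSC and MSC (horizontal axis, log2 scale) for each tested member with its 95% confidence interval, dotted lines at 2-fold. Open points mark genes whose dimmer cell type was at or under the limit, for which the black tick gives the lower bound, and the differences run from -5.66 for Mmp23 to 4.88 for Mmp17.

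The collagenases and most of the secreted metalloproteinases induced in inflammation were not above the limit in either cell type, apart from Mmp13 on 1 array. In the RefSeq assembly GRCm38.p6 they lie side by side on chromosome 9 in the order Mmp13, Mmp12, Mmp1b, Mmp3, Mmp1a, Mmp10, Mmp8, Mmp27, Mmp20 and Mmp7, with no other protein-coding gene between them. Of these 10 genes 9 had a probe set (Mmp27 is not analysed here), and 53 of their 54 array values were at or under the limit, the highest value of any gene but Mmp13 being 2.14. Mmp13, a collagenase of cartilage, bone and remodelling stroma, was the exception, with 8.40 on MSC 2 and 2.12 on the other 5 arrays. Among the 34945 probe sets with 1 gene, none stood further above the mean of MSC 1 and MSC 3 on MSC 2 than that of Mmp13, which exceeded it by 6.28. With a single array above the limit the gene was not tested.

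The promoters of this cluster hold letters that those of the other members with a window, tested or not, mostly lack. Windows from 250 bases before to 50 bases after the start site, taken from RefSeq (GRCm38.p6), were given for 27 of the 42 members. The site of the transcription factor AP-1, searched as TGAGTCA on both strands (TGACTCA on the other), was present in 7 of the 9 cluster genes and in 5.2% of 32851 windows of that length. None of the 12 tested members with a window held it. A TATA box, searched as TATAAA on both strands, was in all 9 cluster genes, in 1 of the 12 tested members (Adamts1) and in 13.6% of all windows. The GC box GGGCGG (both strands), in contrast, was in 11 of those 12 tested members, in no cluster gene and in 35.7% of all windows. Adamts3, Adamts18, Adamts20, Adamtsl2, Mmp24 and Timp4 lie outside the cluster and were not tested either. None of these held the AP-1 site, only Adamtsl2 held a TATA box, and all but Timp4 held a GC box. The letters thus set the cluster apart from the other members, and not untested members from tested ones. Such matches describe the letters of the windows and not binding. Some cluster genes have a pair of windows, and either could hold the match. The promoters of Mmp13, Mmp3 and Mmp10 are printed to show the arrangement, with that of Mmp14, measured on all arrays, for contrast. Each is read 5′ to 3′ on the strand of the gene, with the AP-1 site and the TATA box in capitals.
Mmp13, chr9:7272264-7272563, plus strand: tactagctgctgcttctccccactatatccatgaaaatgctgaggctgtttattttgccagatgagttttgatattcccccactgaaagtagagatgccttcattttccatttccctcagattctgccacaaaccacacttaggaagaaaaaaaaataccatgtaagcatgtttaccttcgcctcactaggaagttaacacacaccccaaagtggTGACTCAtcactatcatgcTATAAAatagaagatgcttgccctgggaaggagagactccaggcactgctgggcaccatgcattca
Mmp3, chr9:7445572-7445871, plus strand: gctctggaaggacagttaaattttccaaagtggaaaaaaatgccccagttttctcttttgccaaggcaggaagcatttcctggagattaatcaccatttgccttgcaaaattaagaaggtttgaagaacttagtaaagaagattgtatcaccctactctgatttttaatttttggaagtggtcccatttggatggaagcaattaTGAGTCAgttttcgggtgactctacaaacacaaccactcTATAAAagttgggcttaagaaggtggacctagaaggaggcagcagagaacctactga
Mmp10, chr9:7502092-7502391, plus strand: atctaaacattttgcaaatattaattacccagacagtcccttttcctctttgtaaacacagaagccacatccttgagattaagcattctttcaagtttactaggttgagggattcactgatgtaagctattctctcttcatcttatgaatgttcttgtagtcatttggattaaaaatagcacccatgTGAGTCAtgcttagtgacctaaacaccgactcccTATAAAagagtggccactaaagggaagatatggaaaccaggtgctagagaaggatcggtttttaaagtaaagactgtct
Mmp14, chr14:54431348-54431647, plus strand: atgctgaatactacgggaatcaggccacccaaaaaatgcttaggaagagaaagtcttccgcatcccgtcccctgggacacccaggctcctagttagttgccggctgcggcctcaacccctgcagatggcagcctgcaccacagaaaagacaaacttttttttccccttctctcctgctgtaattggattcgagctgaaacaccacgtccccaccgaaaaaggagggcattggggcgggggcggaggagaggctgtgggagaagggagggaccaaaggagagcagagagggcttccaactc
In Mmp13, Mmp3 and Mmp10 the AP-1 site began 35, 46 and 63 bases before the annotated start and the TATA box 16, 7 and 29 bases before it, always in that order. The Mmp14 window held neither, and had 2 GC boxes. The cluster windows printed were 43.7%, 40% and 37.7% G or C, and that of Mmp14 was 56%.

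AP-1 subunits themselves were measured in both cell types. Fos was at 10.40, 11.43 and 10.43 in MSC and 10.43, 10.43 and 9.25 in NCSC, which overlap and were not called (adjusted p = 0.182). Its highest value was on MSC 2, the array with Mmp13. Among MSC arrays Jun (11.60, 12.11 and 11.67) and Junb (8.06, 8.23 and 7.91) were also highest there. Fosl2 (12.81, 12.47 and 12.80) and, by a small margin, Jund (11.32, 11.26 and 11.43) were in contrast lowest on MSC 2. Fosl1 was neither highest nor lowest there (11.09, 11.13 and 11.19). Jun rose by 0.83 in NCSC, Fosl1 fell by 1.16 and Jund fell by 0.40, all called, while Junb (-0.27) and Fosl2 (-0.15) did not pass the test. The part of AP-1 levels in the Mmp13 signal was not tested.

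Among Adamts enzymes that cut proteoglycans, 1 was higher, 2 were lower and 1 was not called. Adamts4, the aggrecanase that is induced by inflammatory signals, had 7.67, 10.74 and 7.54 in MSC and 13.08, 13.00 and 12.32 in NCSC. NCSC arrays were all higher, and MSC 2 stood between the other MSC arrays and NCSC. The difference was 4.15 ± 0.87 (SE, adjusted p = 0.00645), or 17.7-fold, and it grew to 5.19 ± 0.26, or 36.6-fold, without MSC 2. The second probe set showed the same order, with 2.29, 5.12 and 2.36 in MSC and 8.08, 8.19 and 7.33 in NCSC, a rise of at least 11.2-fold.

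Adamts5, the other main aggrecanase, fell slightly. It was at 13.09, 12.94 and 13.05 in MSC and at 12.59, 12.49 and 12.14 in NCSC, without overlap, a difference of -0.62 ± 0.13 (SE, adjusted p = 0.0076). Both further probe sets above the limit were lower as well, with differences of -0.82 and -0.88. Adamts1, its direct neighbour on chromosome 16 and a versican-cleaving enzyme, was at 11.55, 11.64 and 11.41 in MSC and at 12.23, 12.12 and 11.60 in NCSC. NCSC 3 overlapped with MSC, and the difference of 0.45 ± 0.18 was not called (adjusted p = 0.0675). Without NCSC 3 it was 0.64 and called (adjusted p = 0.00304).

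Adamts9, a versicanase of development, had 5.90, 7.06 and 5.79 in MSC and 4.56, 4.41 and 4.10 in NCSC. The NCSC arrays lay just over the limit and below every MSC array. It fell by 1.89 ± 0.35 (SE, adjusted p = 0.00393), or by 1.49 without MSC 2. Adamts8, Adamts15 and Adamts20 were under the limit on all arrays, with 2.36 as the highest value.

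Adamts7 and Adamts12, the pair that cleaves cartilage oligomeric matrix protein, were both higher in NCSC. Adamts12 was at 6.38, 6.55 and 6.24 in MSC and 8.64, 8.49 and 8.10 in NCSC. With no overlap it rose by 2.02 ± 0.16 (SE, adjusted p = 0.000112), or 4.06-fold. Adamts7 had 2.76, 4.06 and 3.10 in MSC and 7.21, 6.91 and 8.18 in NCSC, so that MSC 2 barely passed the limit and NCSC was above it on all arrays. It was at least 10.7-fold higher in NCSC (adjusted p = 0.000378), at least 10.8-fold without MSC 2 and at least 8.21-fold without NCSC 3. Comp, the gene of their namesake substrate, was at 2.12 on all arrays. Of 10 cartilage cell genes 4 were tested. Sox6, Sox5 and Matn3 were higher and Sox9 lower in NCSC, while Comp, Acan and Col2a1 were under the limit on every array. The summed log2 intensity of the list ran from 7.59 to 8.07 in MSC and from 11.58 to 12.08 in NCSC, and nearly all of the NCSC sum was Sox6 (12.04, 11.50 and 11.53, against 2.12 in MSC). Their part in the Adamts differences was not tested.

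Adamts6 and Adamts10, relatives that act on fibrillin microfibrils, were not higher in NCSC. Adamts6 fell from 8.22, 8.25 and 8.28 in MSC to 7.29 on each NCSC array, by 0.96 ± 0.07 (SE, adjusted p = 7.41e-05). The 3 NCSC values lay within 0.0084 of each other. Adamts6 lies on chromosome 13, where the median difference was -0.65, and relative to that it fell by 0.31. Adamts10 depended on the probe set. Its brightest differed by -0.28 ± 0.12 with overlapping arrays (4.88, 4.92 and 5.12 in MSC, 4.56, 4.63 and 4.88 in NCSC, adjusted p = 0.0793), while the other was at least 2.37-fold lower in NCSC. Without NCSC 3 the brightest probe set was called (-0.38, adjusted p = 0.0214). Adamts3, a procollagen processing enzyme, and Adamts16, Adamts18 and Adamts19 were under the limit throughout.

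Adamts-like proteins bind the matrix without cutting it, and the 3 tested ones moved in different directions. Adamtsl3 had 5.80, 5.55 and 5.66 in MSC and 10.35, 10.24 and 10.43 in NCSC. The groups were tight and far apart, with a difference of 4.67 ± 0.099 (SE, adjusted p = 3.26e-07), or 25.4-fold. Adamtsl4, a fibrillin-binding protein known from the fibres that hold the lens, went down from 7.69, 7.81 and 7.46 in MSC to 4.79, 4.76 and 3.88 in NCSC. NCSC 3 was under the limit, and the fall was 3.18 ± 0.27 (adjusted p = 0.000131).

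For Adamtsl5, also a fibrillin-binding protein, the probe sets disagreed. The brightest was at 6.98, 6.63 and 6.86 in MSC and 7.07, 6.95 and 6.67 in NCSC. The groups overlapped, and the difference was 0.08, its 95% interval running from -0.27 to 0.43 (adjusted p = 0.653). The other fell from 5.88, 5.14 and 5.68 to 2.98, 3.21 and 3.66, at least 2.96-fold. No direction is given for this gene, since the mean of its probe sets differed by -1.10 and other settings turned the sign of the brightest one. Adamtsl1 and Adamtsl2 were under the limit on all arrays.

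Over all 41 kept probe sets of the members, 11 were called higher and 22 lower in NCSC, while of 18640 kept probe sets 60.1% were called, 33% higher and 27.2% lower. With a difference of at least 2-fold these were 9 and 12 of 41, against 28.2% of all kept probe sets, 15.1% higher and 13.1% lower. Probe sets of a gene are not independent of each other, and genes such as Timp2 (with 5) and Timp3 (with 4) weigh more in these counts.

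**Figure D3:**
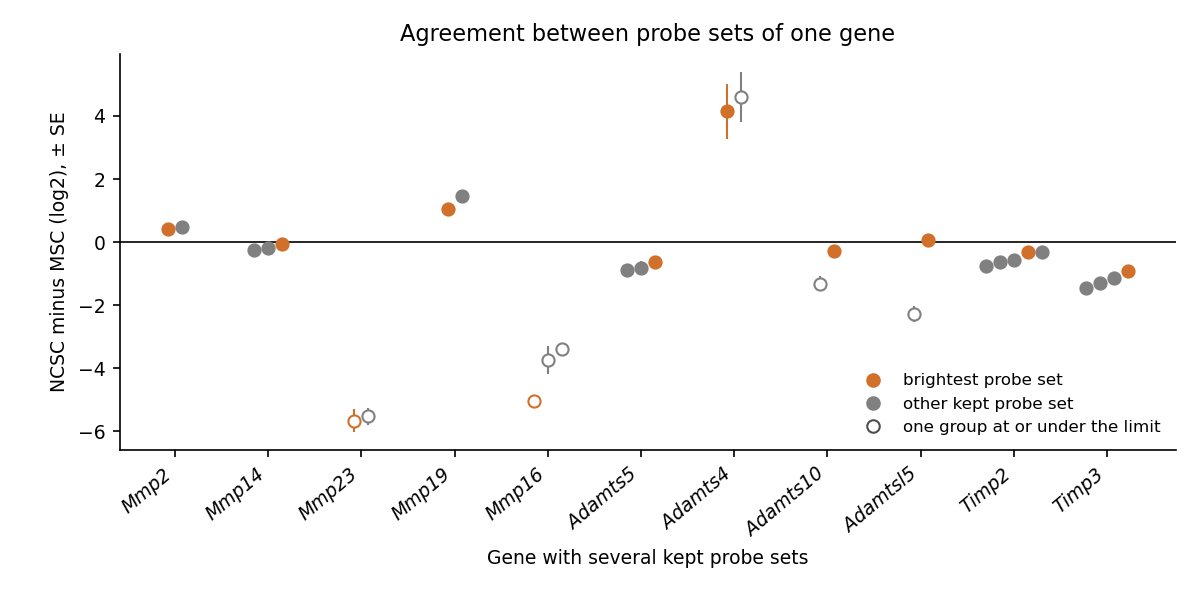
Difference between NCSC and MSC (log2 scale, bars ± SE) for every kept probe set of the 11 members with more than 1, the brightest in orange, open where a cell type was at or under the limit. Probe sets of 10 genes point the same way, and those of Adamtsl5 lie at 0.08 and -2.28.

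Of the 4 inhibitors 3 were tested, and all 3 were lower in NCSC, by less than 2-fold on the brightest probe set of each. Timp3, which is held in the matrix and has the broadest range of targets, was at 13.50, 13.49 and 13.51 in MSC and 12.64, 12.58 and 12.53 in NCSC. These arrays were closely grouped and did not overlap, with a fall of 0.92 ± 0.07 (SE, adjusted p = 0.000105), and its other 3 probe sets fell by 1.13, 1.29 and 1.45. Timp3 thus fell on all 4 of its kept probe sets, more so on the 3 dimmer ones.

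Timp2, the partner of Mmp14 in the activation of Mmp2, had 14.72, 14.89 and 14.63 in MSC and 14.43, 14.31 and 14.51 in NCSC. The highest NCSC array came within 0.12 of the lowest MSC array. The difference was -0.33 ± 0.10 (adjusted p = 0.0315), and its 4 other probe sets above the limit differed by -0.30, -0.55, -0.64 and -0.74, of which the one at -0.30 was not called. The call of the brightest probe set was lost without MSC 1 (adjusted p = 0.0773), MSC 2 (0.0662), NCSC 1 (0.077) or NCSC 2 (0.0958).

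Timp1, a secreted inhibitor on the X chromosome that acts weakly on transmembrane enzymes such as Mmp14, was at 13.64, 13.70 and 13.65 in MSC. In NCSC it was at 12.93 and 12.92 on the first 2 arrays and at 13.57 on NCSC 3, next to the MSC values. The difference of -0.52 ± 0.19 only just passed the test (adjusted p = 0.0483). It was -0.73 without NCSC 3 (adjusted p = 0.000478), and was not called without any other single array, MSC 1 (0.106), MSC 2 (0.114), MSC 3 (0.108), NCSC 1 (0.144) or NCSC 2 (0.143). Timp4, an inhibitor of heart and other muscle, was at the lowest value on all arrays.

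The members were also compared between arrays of a cell type. On MSC 2, 4 of the 22 tested members lay more than 1 log2 unit from the mean of MSC 1 and MSC 3, as against 2.5% of all tested genes, and all 4 were higher there. They were Adamts4 (by 3.14), Adamts9 (by 1.22), Adamts7 (by 1.13, at the limit) and Mmp23 (by 1.10). On NCSC 3 the same was true of 2 members, Mmp9 (by 1.71) and Adamts7 (by 1.13), as against 4.59% of all tested genes, with Adamts7 thus apart on both arrays. No member differed by more than 1 log2 unit between MSC 1 and MSC 3 or between NCSC 1 and NCSC 2. Of all tested genes only 0.409% and 0.438% did, so this is no trait of the members.

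**Figure D4:**
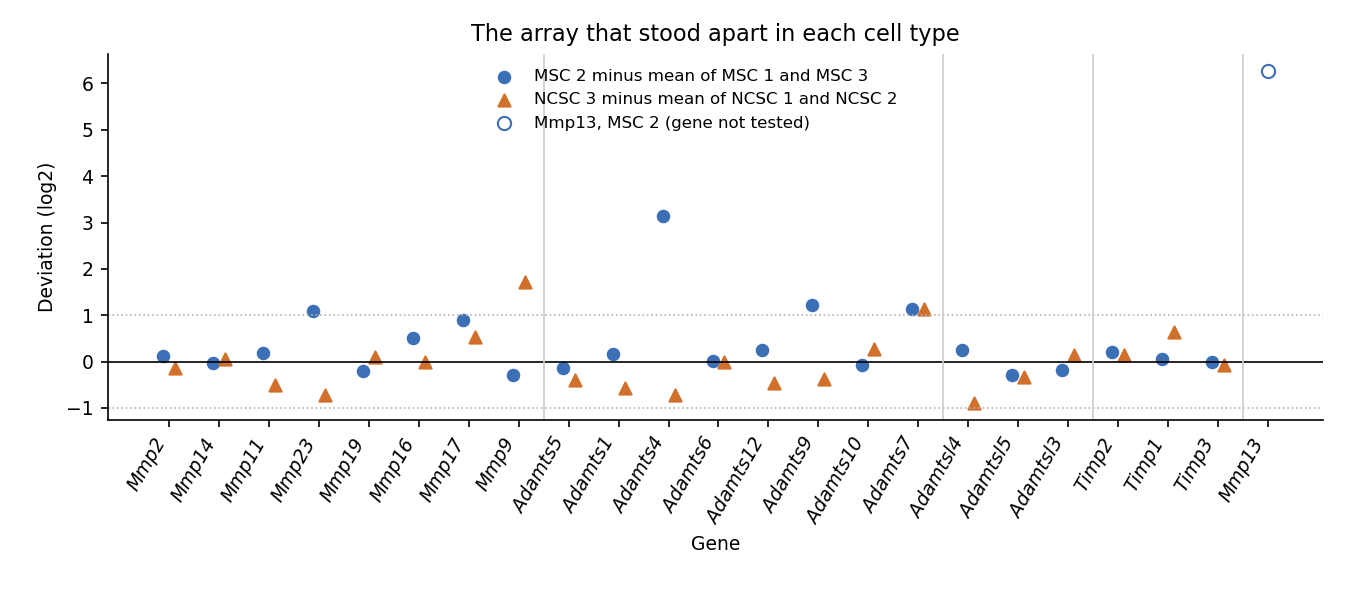
Deviation (vertical axis, log2 scale) of MSC 2 from the mean of the other MSC arrays (blue) and of NCSC 3 from the mean of the other NCSC arrays (orange) for each tested member, with Mmp13, not tested, at the right. Adamts4 on MSC 2 is 3.14 above and Mmp13 6.28 above the other MSC arrays, and most other members lie within 1.

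Genes that open the pro-enzymes were next. Of 14 activators with a probe set 9 were above the limit on no array and 5 were tested. In NCSC 4 of these were called higher and none lower, with a median of 1.24, where 35% of all tested genes were called higher and 29.1% lower. With quantile normalization 4 were called higher and 1 lower. Furin, the convertase that activates Adamts enzymes, Mmp11 and the membrane types inside the cell, rose by 1.24 ± 0.089 (SE), from 9.73, 9.78 and 9.78 in MSC to 10.97, 10.91 and 11.14 in NCSC. The related convertase Pcsk6 rose by 3.07 ± 0.28, and the plasminogen activators Plau and Plat by 1.51 ± 0.29 and 0.91 ± 0.15. Plasminogen itself (Plg) was at the lowest value on all arrays.

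Other regulators of these enzymes did not move together. Of 19 with a probe set 11 were tested, 4 higher and 4 lower in NCSC, with a median of 0.035, so that 8 of 11 were called against 64.1% of all tested genes. Reck, a membrane-anchored inhibitor of Mmp2, Mmp9 and Mmp14, was at 9.88, 10.03 and 9.78 in MSC and 8.69, 8.83 and 8.06 in NCSC, a fall of 1.37 ± 0.21 (SE, adjusted p = 0.00175) without overlap. Thbs2, a matrix protein that helps clear Mmp2 from the cell surface, rose by 3.96 ± 0.17. The enhancers of procollagen cleavage went apart, with Pcolce2 up by 7.51 ± 0.52 and Pcolce down by 1.47 ± 0.11, and the caveolar protein Cav1 fell by 2.23 ± 0.10.

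Adam genes, relatives of the Adamts family, include membrane proteases that shed cell surface proteins, although not every listed gene encodes such a protease. Of the 11 listed 9 were tested, 5 higher and 1 lower in NCSC. The share called, 6 of 9, was close to the 64.1% of all tested genes. The main sheddase Adam17 rose by 1.18 ± 0.087 (SE), the brain protein Adam23 by 4.37 ± 0.26, and Adamdec1 was at least 11.4-fold higher. Adam9 was the one that fell, by 1.29 ± 0.080. The median of this list, with Adam23 and Adamdec1 in it, was 1.18.

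Known substrates of these enzymes were found on both sides. From a list of 31 measured genes 19 entered the test, and 9 fell and 4 rose in NCSC, with a median of -0.64. Over all tested genes 29.1% were called lower and 35% higher, and the difference from the list was not tested. Versican (Vcan), the proteoglycan cut by Adamts1, Adamts4, Adamts5 and Adamts9, was at 13.59, 13.86 and 13.61 in MSC and 2.12, 2.14 and 2.12 in NCSC, at least 826-fold lower (adjusted p = 1.2e-08). The fibulin Fbln2 and tenascin Tnc were at least 1488-fold and 485-fold lower, and the proteoglycan Bgn fell by 6.68 ± 0.28 (SE). Vcan, Fbln2 and Tnc passed the limit through MSC alone and so had to be lower. The 4 that rose were Postn (by 2.62 ± 0.23), Col3a1 (by 0.57), Col5a1 (by 0.54) and Sparc (by 0.45). Aggrecan (Acan), the other classical substrate of Adamts4 and Adamts5, was at the lowest value on all arrays.

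Transcription factors known to act on metalloproteinase promoters included 18 tested genes, 5 higher and 7 lower in NCSC, with a median of -0.30. The share called, 12 of 18, was close to the 64.1% of all tested genes. Runx1 rose by 2.37 ± 0.12 (SE), Ets1 by 1.32 ± 0.16 and Etv5 by 1.25 ± 0.11, and the immediate early factor Egr1 fell by 1.94 ± 0.15.

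**Figure D5:**
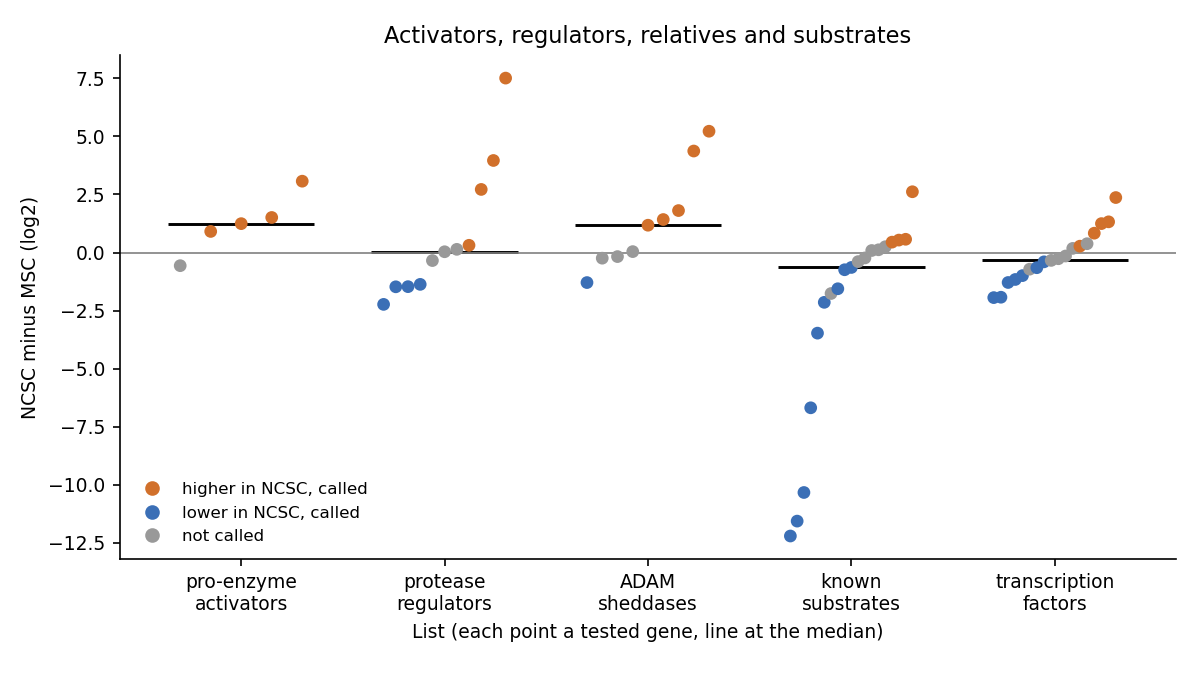
Difference between NCSC and MSC (vertical axis, log2 scale) of each tested gene in 5 lists, with the median as a line. The lists are activators, regulators, Adam genes (labelled ADAM sheddases), substrates and transcription factors. Activators and Adam genes have medians of 1.24 and 1.18, and the substrates include Fbln2, Vcan and Tnc at the lower end.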

How the data were processed

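Per the submitters' processing notes, the authors made the deposited probe set intensities with GCRMA (version not stated), which corrects background and normalizes between arrays. The linear scale was read from the values. They were taken to log2, without further normalization. Of 45101 probe sets 34945 had 1 annotated gene, 932 several, 9160 none in the table used here and 64 were controls. All 78 member probe sets matched RefSeq (GRCm38.p6) by gene ID with the same symbol. The 9 RefSeq genes of the rule without a probe set here (Adamts2, Adamts13, Adamts14, Adamts17, Mmp15, Mmp21, Mmp25, Mmp27 and Mmp28) are not analysed here.

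NCSC and MSC were compared with limma 3.58.1 in R 4.3.3 (lmFit, eBayes, two-sided), with p-values adjusted by Benjamini-Hochberg over all 10501 genes tested. The fit was tested on simulated data. Folds of genes whose dimmer cell type had a mean of 4 or less are lower bounds, computed with values under 4 set to 4. Intervals are 95%. The number of arrays limits the precision. Same-numbered arrays did not pair: the correlations of their deviations were -0.098, 0.062 and 0.073. Every tested member is named, with up to 4 genes of each partner list by adjusted p, direct partners of members and the substrates called higher. Members and lists were chosen with earlier results of these data known. The 17 alternatives concern normalization, filter, floor, probe set choice, variance model, array weights, a replicate block and arrays left out.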

Additional observations from a re-analysis of the deposited data

How the results depend on the processing

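Of the 18 called members 16 kept their direction and call under every one of the 17 alternatives that tested them. The exceptions were Timp1 and Timp2, not called in 9 and 7 alternatives, at adjusted p up to 0.149 and 0.0958. The same count was not made over all called genes, so it shows no particular stability of the members. Mmp9, Mmp16 and Mmp23, above the limit in 1 cell type alone, could hardly change direction. Of the 4 members not called, Mmp14 was called in none, while Adamts1 was called in 5 and Adamts10 in 7. In the alternative with every kept probe set a gene was judged by its probe set with the largest difference, which favours a call. Adamtsl5 turned sign with quantile normalization (-0.0028), with the mean of its probe sets (-1.10), by its other probe set (-2.28) and when MSC 2 or NCSC 1 was left out (-0.018 and -0.0083), the range without single arrays being -0.018 to 0.19. It was called higher with chromosome medians removed (0.42). That setting also changed other members, bringing Mmp11 to -0.63, Timp3 to -0.58 and Adamts1 to 0.16, and taking Adamts5 further from 0, to -0.91. With every kept probe set as a feature, 12 of 41 member probe sets were called at least 2-fold lower, of which Mmp16 and Timp3 gave 3 each and Mmp23 2. Leaving out single arrays gave 8 to 9 members higher and 8 to 11 lower, 6 to 7 and 4 to 5 of them by at least 2-fold, and 3152 to 3867 higher and 2554 to 3317 lower among all genes. With the replicate block, which the arrays' numbers do not warrant, 9 members were higher and 8 lower, Adamts1 was called (adjusted p = 0.0407) and Timp1 and Timp2 were not (0.0593 and 0.0873). The median difference of the members was -0.52 with the mean of the probe sets, -0.06 with a limit of 5 and -0.13 without MSC 3 or NCSC 1. The cause of these changes was not tested. Mmp9, Mmp23, Adamts7, Adamts9, Adamts10 and Adamtsl4 had values close to the limit of 4 in at least 1 cell type, so little signal over background stands behind them there.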
